A study of Mus musculus with 2 samples.

Results

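The Zfp9xx genes are mouse genes whose symbol is Zfp9 followed by 2 more digits. They were found by symbol in a RefSeq gene table of mm10 (GRCm38.p6), among protein-coding genes on chromosomes 1 to 19, and 62 of 20665 such genes qualified. The symbol alone decides membership, but the group was chosen by its loops, with their peak scores and peak pixels already seen in these data, so the values below are descriptions with no test. They were set beside the 298 other genes of the table named Zfp and a number. Chromatin contacts came from Micro-C, a form of Hi-C that cuts crosslinked chromatin with micrococcal nuclease. All material came from V6.5, a wild-type male line of mouse embryonic stem cells, as 2 samples of 1 group, siControl. Both received siGLO, a transfection control, at 50 nM and were harvested at 48 hours, and no knockdown group was analysed here. The labels do not say whether the samples were separate cultures. The data were 1 list of loops for the group, 4858 of them on chromosomes 1 to 19. The list holds no values per sample, so no spread between replicates could be measured, and the read depth is unknown. Loops carry no expression values, so the cell type and the activity of the genes could not be checked against markers.

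In mouse, the Zfp symbol is given to genes of zinc finger proteins, most of which bind DNA through arrays of C2H2 fingers. Many of them also carry a KRAB domain, which recruits the corepressor Trim28 and the histone methyltransferase Setdb1. These proteins are known for silencing transposable elements in embryonic stem cells, and their genes have multiplied in rodents into clusters of similar copies. Zfp932, for example, is known to repress endogenous retroviruses in mouse embryonic stem cells. A loop is a pair of intervals, called anchors, whose contact the caller scored above that of the pixels around it. Anchors in pluripotent cells are often bound by CTCF and cohesin.

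The genes lay in 28 loci on 13 chromosomes, and 42 of the 62 stood in 8 clusters, in which neighbouring gene records were at most 500 kb apart. The other 20 stood singly. Chromosome 4 had 14 members, all in 1 cluster. Chromosome 17 had 13, of which 10 formed a cluster. Chromosome 2 had 10, and 9 of these made up 3 clusters in a row. Chromosome 7 had 9, with 4 in a cluster, and chromosome 8 had 5, with 3 in a cluster. Chromosome 13 had 3, including a cluster of 2. Gene records had a median length of 23.3 kb, from 6.79 kb for Zfp954 to 479 kb for Zfp993. On chromosome 4 some records ran over each other: Zfp993 overlapped Zfp981, and Zfp978 overlapped Zfp991 and Zfp988, so a value of these genes is not separate from that of its partner.

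Promoter sequences show how alike neighbouring members are. RefSeq promoters (GRCm38.p6), which run from 250 bases before to 50 bases after a start, matched 55 of the 62 genes, with 63 promoters in all. On chromosome 2, the promoters of Zfp966 and Zfp967 were identical over all 300 bases, although the genes stand in different clusters and on opposite strands. Their gene records were of the same length, 12.8 kb. The 250 bases before the start of Zfp967 (chr2:176520754-176521003, plus strand) are shown first because the same letters precede Zfp966, with CG pairs in capitals.
Zfp967: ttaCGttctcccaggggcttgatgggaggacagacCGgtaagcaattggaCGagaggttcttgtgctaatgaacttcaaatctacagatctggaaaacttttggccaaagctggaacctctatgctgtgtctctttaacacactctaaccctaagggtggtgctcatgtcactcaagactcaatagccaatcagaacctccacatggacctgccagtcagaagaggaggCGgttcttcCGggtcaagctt
The promoters of Zfp968 and Zfp973, in the first and second of the chromosome 2 clusters, differed at 1 of 300 bases. The stretch of 80 bases around that base (chr2:175372251-175372330 and chr2:176670337-176670416, plus strand) has the differing base in capitals. Counted from 1 at the first base of the promoter, the change is A106G.
Zfp968: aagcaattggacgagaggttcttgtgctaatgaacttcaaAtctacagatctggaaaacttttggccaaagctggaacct
Zfp973: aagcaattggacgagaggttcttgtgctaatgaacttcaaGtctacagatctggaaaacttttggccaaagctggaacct
The promoters of Zfp965 and Zfp971, in the first cluster and the third, differed at 9 of 300 bases. Of these differences, 7 lie in the 250 bases before the start (chr2:175469775-175470024 and chr2:178023034-178023283, plus strand) and are in capitals.
Zfp965: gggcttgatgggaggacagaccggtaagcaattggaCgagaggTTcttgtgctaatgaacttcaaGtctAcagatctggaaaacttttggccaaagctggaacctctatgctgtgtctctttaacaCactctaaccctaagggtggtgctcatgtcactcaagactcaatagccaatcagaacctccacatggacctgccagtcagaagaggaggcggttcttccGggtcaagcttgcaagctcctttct
Zfp971: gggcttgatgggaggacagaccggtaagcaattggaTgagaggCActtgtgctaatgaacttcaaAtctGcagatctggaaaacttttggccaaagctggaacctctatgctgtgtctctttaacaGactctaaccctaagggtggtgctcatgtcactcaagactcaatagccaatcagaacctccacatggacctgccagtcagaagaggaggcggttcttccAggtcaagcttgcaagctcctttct

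Across the 36 pairs among the 9 chromosome 2 members from Zfp968 to Zfp931, the median promoter identity in a global alignment was 78.2%, with a range of 58.4 to 100%. In the chromosome 4 cluster it was 71.1% over 45 pairs (45.4 to 89.8%), and in the chromosome 7 cluster 73.7% over 6 pairs (60.1 to 89.8%). In the chromosome 17 cluster it was 50.0% over 45 pairs (44.2 to 84.3%), close to the 50.4% of the 1285 pairs on different chromosomes. Promoters of the clusters on chromosomes 2, 4 and 7 were thus more alike than those of the chromosome 17 cluster. Within chromosome 4, the promoters of Zfp993 and Zfp933 were unlike those of the rest of the cluster. The promoter most like each was that of a member on another chromosome, at 53.2% and 53.04%. Other parts of these genes were not compared. Zfp980 and Zfp979 were the most alike there, at 89.8%, followed by Zfp987 and Zfp982 at 89.1%. Zfp977 and Zfp936 led on chromosome 7, also at 89.8%.

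**Figure D1:**
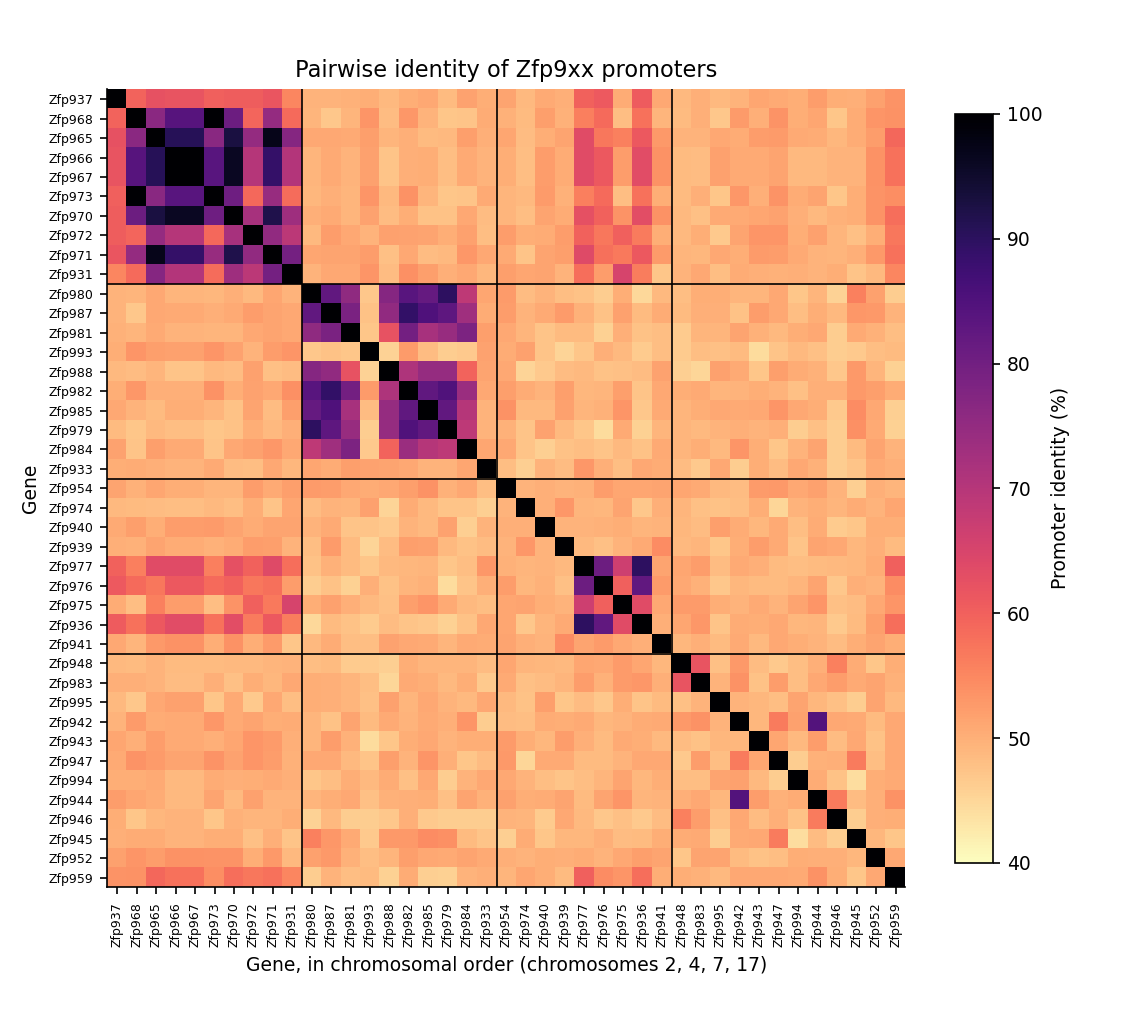
Pairwise promoter identity (colour, percent of alignment columns that match; best pair of promoters where a gene has several) for the Zfp9xx genes of chromosomes 2, 4, 7 and 17 with a promoter, in chromosomal order on both axes, with lines between chromosomes. Dark blocks of like promoters fill chromosome 2 and much of chromosome 4 and the cluster of chromosome 7, while in the chromosome 17 cluster the 1 dark pair is Zfp942 and Zfp944 at 84.3%.

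That pair on chromosome 17 belonged to divergent promoters. Zfp942 and Zfp943 start 95 bases apart and run away from each other, and so do Zfp944 and Zfp758, another zinc finger gene, 63 bases apart. The bases between the facing starts are shown on the plus strand with CG pairs in capitals (chr17:21962465-21962558 and chr17:22361401-22361462). All 62 bases of the shorter stretch recur within the longer one.
Zfp942 and Zfp943: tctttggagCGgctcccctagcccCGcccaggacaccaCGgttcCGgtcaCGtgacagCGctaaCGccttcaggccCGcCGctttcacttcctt
Zfp944 and Zfp758: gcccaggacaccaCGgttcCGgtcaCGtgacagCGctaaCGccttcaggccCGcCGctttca
Both stretches hold the E box letters CACGTG, which read the same on both strands. A search for these letters, added after the stretches had been seen, found them in 7 of the 63 member promoters (11.1%), against 7.89% of all 20085 promoters of protein-coding genes. Of the 7, 6 were among the 10 promoters of the chromosome 17 cluster: those of Zfp942, Zfp943, Zfp947, Zfp994, Zfp944 and Zfp946. The windows of Zfp942 and Zfp943 overlap, so these 6 are not separate sites. Most member promoters held fewer CG pairs than the median promoter of all protein-coding genes. Their median was 8 per promoter (quartiles 5 and 10.5). It was 16 in the other Zfp genes (9 and 22) and 14 in all protein-coding genes (4 and 25). The lower quartile of the members was thus near that of all genes, and the upper quartile was below it. The range among members was 2, at a start of Zfp982, to 25, at Zfp996. The richest, Zfp996 on chromosome 12 (chr12:18387241-18387490, plus strand), is shown for contrast with the chromosome 2 copies, which held 3 to 5.
Zfp996: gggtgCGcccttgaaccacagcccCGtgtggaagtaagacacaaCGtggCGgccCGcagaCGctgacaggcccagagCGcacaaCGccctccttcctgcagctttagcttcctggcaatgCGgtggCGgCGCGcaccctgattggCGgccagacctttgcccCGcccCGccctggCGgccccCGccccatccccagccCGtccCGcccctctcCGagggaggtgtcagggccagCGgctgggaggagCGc

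Many of these genes lay far from any anchor. The median distance from a gene record to the nearest anchor was 303 kb for Zfp9xx genes, 133 kb for the other Zfp genes and 57.4 kb for all protein-coding genes. Of the Zfp9xx genes, 27 of 62 (43.5%, exact Clopper-Pearson 95% interval 31.0 to 56.7%) lay more than 500 kb from an anchor, against 69 of 298 other Zfp genes (23.2%, 18.5 to 28.4%) and 11.4% of all protein-coding genes. Weighted by the chromosomes on which the members lie, the share over all genes was 15.9%. These intervals count genes as if they were separate, which clustered genes are not. Counted by locus, 7 of 28 loci had every member beyond 500 kb, and with each locus counted once the median distance was 117 kb. This median is below the 133 kb of the other Zfp genes. Those were not grouped into loci, so the medians are not measured alike.

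**Figure D2:**
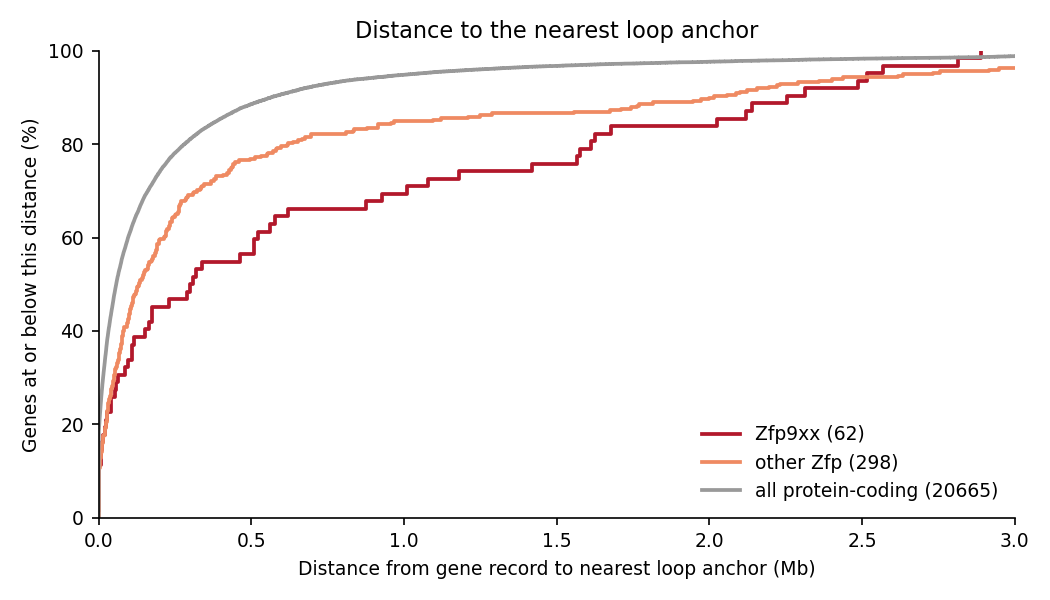
Cumulative share of genes (y axis, percent) by distance from the gene record to the nearest loop anchor (x axis, Mb, drawn to 3 Mb) for Zfp9xx genes, other Zfp genes and all protein-coding genes of chromosomes 1 to 19. The Zfp9xx curve rises most slowly and reaches its midpoint at 303 kb, against 133 kb for the other Zfp genes and 57.4 kb for all genes.

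The same was seen in the stretches between anchors. The anchors of the list left 7710 intervals free of anchors, with a median length of 150 kb, and 389 of these (5.05%) measured 1 Mb or more. Of the Zfp9xx genes, 41 of 62 (66.1%, 53.0 to 77.7%) lay whole in such a long interval, against 114 of 298 other Zfp genes (38.3%, 32.7 to 44.04%) and 24.6% of all protein-coding genes. The chromosome-weighted share over all genes was 32.6%. Of the 41, 8 were enclosed by a loop all the same: they lay between the anchors of a chromosome 4 loop of 1950 kb with no other anchor inside it. The 41 genes shared 12 intervals, and by locus 13 of 28 (46.4%) had every member in one. Loci were not all separate either, since the neighbouring clusters of chromosome 2 lay in the same interval. The genes compared with them were not grouped into loci. Intervals of 2 Mb or more held 45.2% of the Zfp9xx genes, against 11.7% of all genes. Where anchors of 10 kb pixels alone were counted, intervals of 1 Mb or more held 85.5%, against 45.9%. With any 1 cluster left out, the share of genes stayed between 59.6 and 68.75%.

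Among clusters, that of chromosome 17 lay farthest from anchors. Its 10 genes were Zfp948, Zfp983, Zfp995, Zfp942, Zfp943, Zfp947, Zfp994, Zfp944, Zfp946 and Zfp945. They shared an anchor-free interval of 6580 kb (17900001 to 24480000) with 122 protein-coding genes in all, number 13 by length among the intervals. Their distances to the nearest anchor ran from 1613 kb for Zfp945 to 2891 kb for Zfp948. Zfp948, Zfp983 (2815 kb) and Zfp995 (2570 kb) were the 3 members of all 62 farthest from an anchor. No loop had an anchor within the cluster or 500 kb to either side, a window of 2.30 Mb. A count of 0 would allow up to 3 loops, or 1.30 per Mb, if loops were independent. Chromosome 17 as a whole held 1.51 per Mb, with each loop counted once. The cluster is described because it lay farthest from anchors, so its empty window is no separate evidence of low density. An empty window was not general to the clusters. Window densities count a loop with either anchor in the window, while densities over chromosomes count each loop once. Window values therefore tend to run higher, and the pairs below cannot show whether a cluster was as dense in loops as its chromosome. In the same kind of window, 5 of the 8 clusters lay below the 1.97 loops per Mb of chromosomes 1 to 19. The cluster of Zfp968 to Zfp966 had 2.57 per Mb against 2.45 over chromosome 2, that of Zfp930 to Zfp963 had 2.60 against 1.89 over chromosome 8, and that of Zfp935 and Zfp934 had 2.66 against 2.27 over chromosome 13. The cluster of Zfp970 to Zfp931 had 1.86 against 2.45, and that of chromosome 4 had 1.20 against 1.79. Windows around Zfp967 and Zfp973 and around Zfp977 to Zfp936 also held no loop, with limits of 2.59 and 1.86 per Mb. Their chromosomes held 2.45 and 1.33 per Mb with each loop counted once, so no conclusion is drawn from these limits.

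On chromosome 2, the 9 genes from Zfp968 to Zfp931 lay in an anchor-free interval of 3190 kb (174910001 to 178100000), with 32 protein-coding genes in all. Zfp968, Zfp965 and Zfp966 lay 462, 560 and 1008 kb from the nearest anchor, Zfp967 and Zfp973 lay 1566 and 1419 kb away, and Zfp970 lay 621 kb away. Zfp972, Zfp971 and Zfp931 approached its upper edge, at 174, 64.1 and 21.6 kb. Loops were listed on both sides of this block. On the lower side, 4 ended between 174875001 and 174910000. On the upper side, 3 began between 178100001 and 178140000, and 2 of these reached an end of Phactr3, with peak scores (values of the loop caller, without unit) of 4.32 and 7.26. No loop crossed the block or enclosed any of its 9 genes. Zfp937, a single gene of the same chromosome, lay elsewhere, 108 kb from an anchor.

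On chromosome 7, Zfp977, Zfp976, Zfp975 and Zfp936 shared an anchor-free interval of 6000 kb (38270001 to 44270000) with Zfp939. The 4 clustered genes lay 1677, 1626, 1577 and 1078 kb from the nearest anchor and Zfp939 lay 1179 kb away. Zfp954 stood in the longest interval of any member, 9990 kb (6940001 to 16930000), although only 175 kb from its lower edge. Zfp940 stood in one of 7835 kb, 307 kb from an anchor, and Zfp974 in one of 1330 kb, 510 kb away. Chromosome 7 as a whole held 1.33 loops per Mb, against 1.97 over chromosomes 1 to 19.

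**Figure D3:**
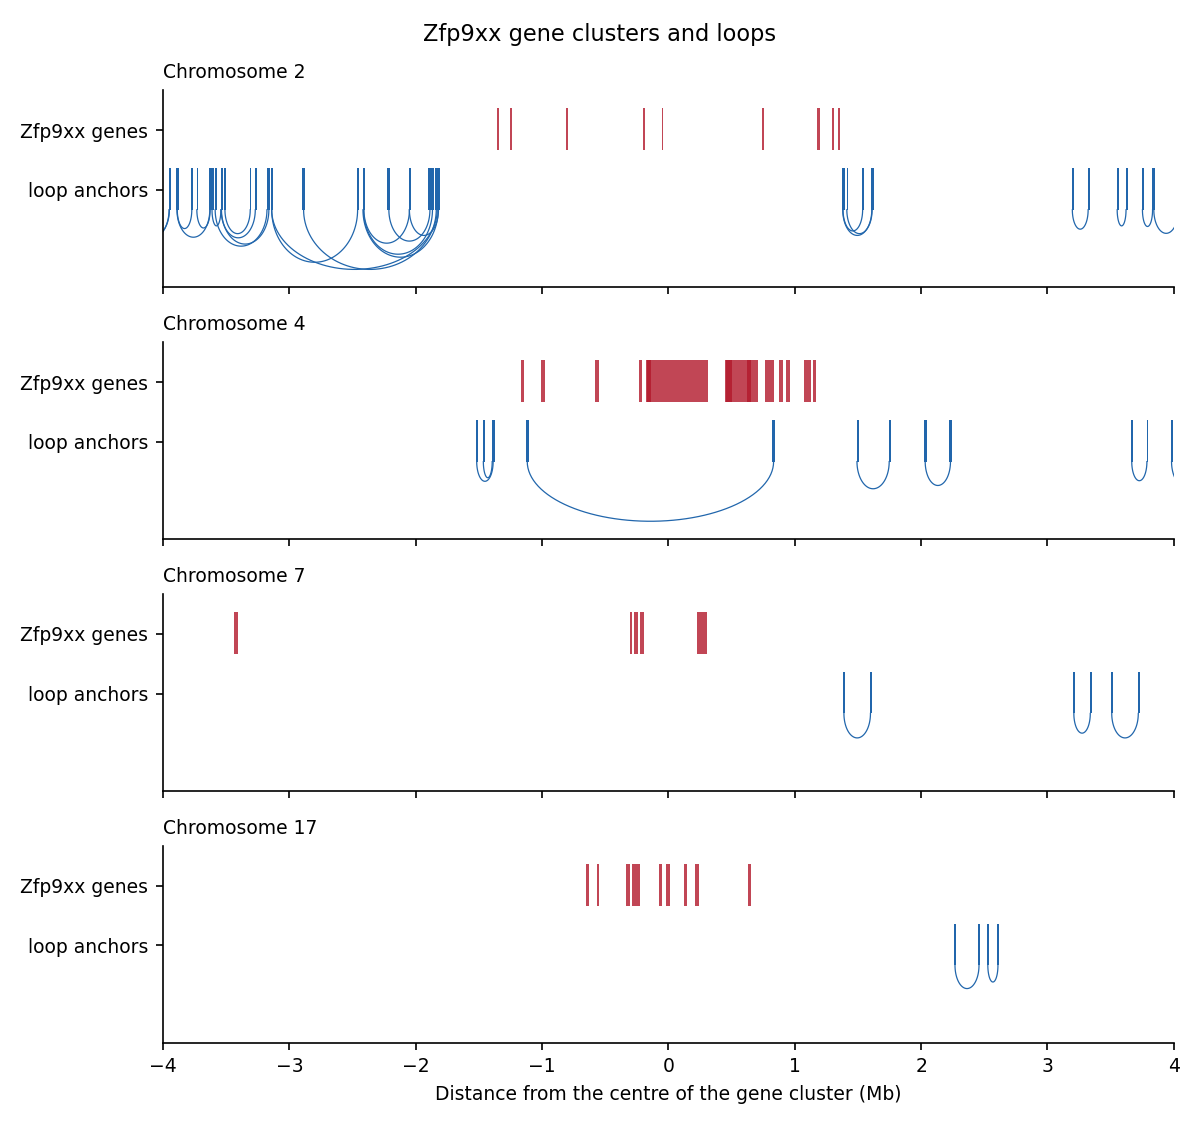
Maps of the Zfp9xx clusters of chromosomes 2, 4, 7 and 17, with gene records (red), loop anchors (blue blocks) and loops (blue arcs) against the distance from the centre of the cluster (x axis, Mb). On chromosomes 2, 7 and 17 no anchor falls among the genes, and on chromosome 4 a loop of 1950 kb spans most of the cluster.

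On chromosome 4, the anchor-free interval of 1925 kb (145575001 to 147500000) was the inside of the loop at Zfp982 and held the 8 genes that this loop encloses. The remaining long intervals held Zfp996 on chromosome 12 (6650 kb, 577 kb from an anchor), Zfp953 on chromosome 13 (5060 kb, 2139 kb), Zfp935 and Zfp934 on chromosome 13 (1870 kb, 153 and 40.7 kb), Zfp932 on chromosome 5 (1690 kb, 338 kb) and Zfp963 on chromosome 8 (1200 kb, 41.6 kb). Outside such intervals, Zfp961 and Zfp958 on chromosome 8 were 290 and 23.2 kb away, Zfp949 on chromosome 9 was 8.02 kb away, Zfp938 on chromosome 10 was 54.9 kb away, and Zfp960 on chromosome 17 was 114 kb away. None of these 5 was enclosed by a loop. Of the 20 single genes, 16 had a loop anchor within 500 kb of the gene. In that window, 9 had a loop density at or above that of chromosomes 1 to 19, where each loop is counted once. The window counts a loop by either anchor, which tends to raise its value.

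Repeated promoters were set beside the distance from anchors. A promoter was called repeated where at least 1 run of 50 bases also occurred in a promoter of another gene elsewhere. That held for 28 of 55 Zfp9xx genes (50.9%), against 12 of 246 other Zfp genes (4.88%) and 7.94% of all protein-coding genes. It held for 8 of the 9 genes of the chromosome 2 block, 8 of the 10 of the chromosome 4 cluster with a promoter, all 4 of the chromosome 7 cluster and 5 of the 10 of the chromosome 17 cluster. Members with a repeated promoter lay at a median of 590 kb from an anchor, and 21 of 28 (75.0%) lay in a long anchor-free interval. Members without one lay at a median of 290 kb, and 16 of 27 (59.3%) lay in a long interval. Most of the 28 stand in the groups of neighbours named above, which share intervals, so these genes are not separate. In the chromosome 17 cluster, genes with and without a repeated promoter lay in the same interval. Over all protein-coding genes, long intervals held 49.7% of genes with a repeated promoter and 23.1% of those without. These shares are descriptions, and no difference between them was tested. Reads that match several copies cannot be placed uniquely, and no source used here says how they were treated. The part of repeated sequence in the lack of anchors was not tested, and the promoter table covers too little of the genome to stand for mappability.

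Few Zfp9xx genes lay at an anchor, and the share was near the background. An end of the gene record fell in an anchor for 4 of 62 genes (6.45%, 1.79 to 15.7%), against 23 of 298 other Zfp genes (7.72%) and 9.19% of all protein-coding genes. Any overlap with an anchor was found for 6 genes (9.68%, 3.63 to 19.9%), against 18.1% of all genes. With transcription starts alone, 2 of 55 genes (3.64%) were at an anchor, against 5.26% of all genes with a start. With loops of 5 or 10 kb pixels alone, 1 gene (1.61%) had an end at an anchor, against 1.95 and 5.68% of all genes. Loops of 25 kb pixels alone gave 2 genes (3.23%), against 2.20%. Keeping the higher-scoring loops, split at the median within each pixel size, gave 4.84%, against 4.85%. Anchors widened by 5 and 10 kb gave 8.06 and 14.5%, against 16.5 and 22.3%. Leaving out loops above a peak score of 10 gave 4.84%, against 9.10%. By locus, 4 of 28 (14.3%) had a gene end at an anchor, against 9.19% of all genes, which were not grouped. Both intervals given include the share of all genes. Neither an overlap with an anchor nor an enclosing loop was found for 43 of 62 Zfp9xx genes (69.4%, 56.3 to 80.4%), against 209 of 298 other Zfp genes (70.1%) and 55.1% of all genes. Weighted by the members' chromosomes, the share of all genes was 60.7%, inside the interval of the Zfp9xx genes, and the share of the other Zfp genes was much the same as theirs.

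The 4 genes were Zfp982, Zfp941, Zfp930 and Zfp952. Zfp982, a gene reported to act in the self-renewal of mouse embryonic stem cells, had its high-coordinate end and 1 of its 3 annotated starts in the upper anchor of a loop on chromosome 4, from 145550001 to 145575000 and from 147500001 to 147525000. The 250 bases before that start (chr4:147500436-147500685, plus strand) are given because they begin inside the anchor. They held 2 CG pairs.
Zfp982: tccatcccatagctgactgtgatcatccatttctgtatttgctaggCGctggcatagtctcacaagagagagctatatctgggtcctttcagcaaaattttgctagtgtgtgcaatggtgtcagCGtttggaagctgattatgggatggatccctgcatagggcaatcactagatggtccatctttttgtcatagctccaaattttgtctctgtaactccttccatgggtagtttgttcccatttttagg
Zfp952 on chromosome 17 had its start in the upper anchor of a loop of 450 kb (32525001 to 32550000 and 32975001 to 33000000) of 25 kb pixels. The same anchor held an end of Zfp472, another zinc finger gene, and the other anchor held ends of Cyp4f17 and Cyp4f16, cytochrome P450 genes. Its peak score was 3.87, its regional score 2.23 and its peak pixel 15.3. The promoter (chr17:32992889-32993138, plus strand) lies inside the anchor.
Zfp952: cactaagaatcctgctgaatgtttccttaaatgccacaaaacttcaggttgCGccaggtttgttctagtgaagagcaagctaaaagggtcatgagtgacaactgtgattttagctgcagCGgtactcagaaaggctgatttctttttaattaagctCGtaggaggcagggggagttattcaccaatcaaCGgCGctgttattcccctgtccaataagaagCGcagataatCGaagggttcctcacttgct

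Zfp941 on chromosome 7 had the end away from its start in an anchor (140800001 to 140810000) that took part in 2 loops of 10 kb pixels. One spanned 720 kb and reached an end of Caly (140080001 to 140090000), with a peak score of 3.65, a regional score of 2.05 and a peak pixel of 8.38. The other spanned 630 kb and reached an end of the olfactory receptor gene Olfr523 (140170001 to 140180000), with a peak score of 3.54, a regional score of 2.17 and a peak pixel of 8.19. Both reached toward lower coordinates. Zfp930 on chromosome 8, for which no start was given, had its low-coordinate end in the anchor of a loop of 90 kb (69115001 to 69120000 and 69205001 to 69210000) of 5 kb pixels. Its peak score was 6.20, its regional score 2.85 and its peak pixel 5.85, and no gene end lay at its far anchor. The peak scores of these 4 loops at Zfp941, Zfp930 and Zfp952 lay at percentiles 27.9 to 81.2 of loops of the same pixel size, and their peak pixels at percentiles 61.4 to 81.1.

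The loop at Zfp982 stood apart from these. It spanned 1950 kb in pixels of 25 kb. Its peak score was 32.8, the second highest of the 636 loops of that pixel size, whose median was 3.85. Its regional score was 8.26, at percentile 99.1. Its peak pixel, the value of the contact map at the loop, was 57.0, the highest of the 636, followed by 31.7, with a median of 14.3. The pixel was 3.19 times the mean of the 3 by 3 block around it, also the highest of the 636, whose median was 1.41. Zfp980, Zfp987, Zfp992, Zfp981, Zfp993, Zfp978, Zfp991 and Zfp988 lay between its anchors. Zfp990 lay below the lower anchor, and Zfp985, Zfp979, Zfp984 and Zfp933 lay above the upper one. It was the only listed loop with an anchor over the cluster, and 8 of the 10 cluster members with a promoter had a repeated one. The part of these copies in the value of the pixel was not tested.

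**Figure D4:**
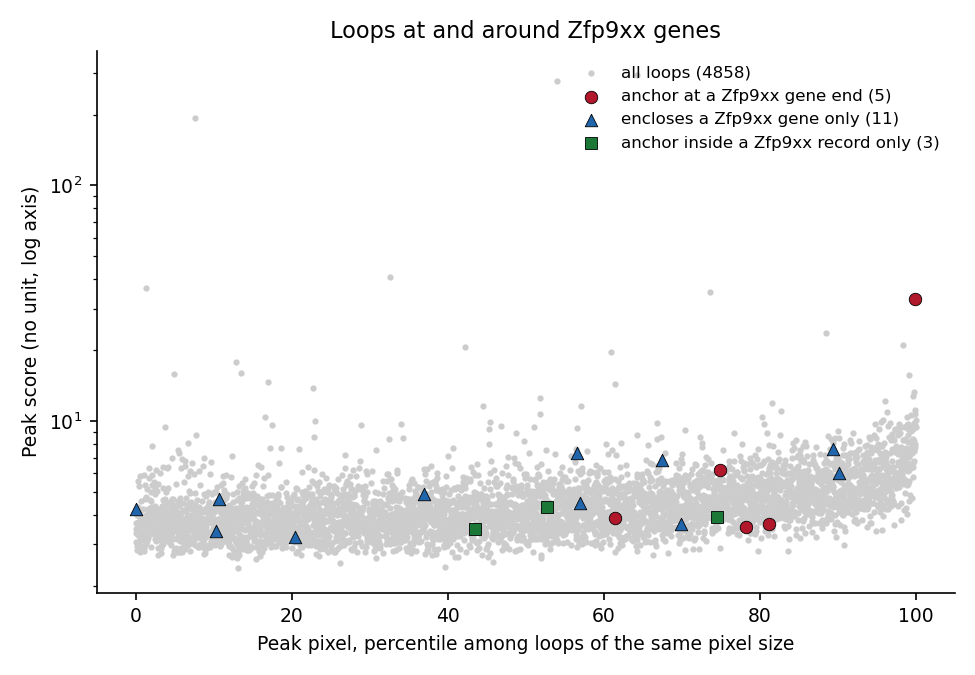
Peak score (y axis, no unit, log axis) against the percentile of the peak pixel among loops of the same pixel size (x axis) for loops with an anchor at a Zfp9xx gene end (red circles), loops that only enclose a member (blue triangles), loops with an anchor inside a record only (green squares) and all 4858 loops (grey). The loop at Zfp982 sits at the upper right with a score of 32.8, while the other marked loops lie among the bulk, between 3.23 and 7.59.

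Loops enclosed 15 of the 62 genes (24.2%, 14.2 to 36.7%), against 63 of 298 other Zfp genes (21.1%) and 33.0% of all protein-coding genes. The interval includes the share of all genes. The 15 rested largely on the Zfp982 loop, which enclosed 8 of them. Without the loops above a peak score of 10, 7 genes (11.3%) were enclosed, against 32.7% of all genes, and the median distance to an anchor was 544 kb. Counting only loops of at most 1 Mb, 6 genes (9.68%) were enclosed, against 27.5% of all genes, and with loops of at most 500 kb 5 (8.06%), against 21.5%. Loops of 5 kb pixels alone enclosed 1 gene (1.61%), against 7.77%, and those of 10 kb pixels 6 (9.68%), against 21.5%.

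The other 7 enclosed genes stood at single loci or on chromosome 8. Zfp937 on chromosome 2 lay in a loop of 1210 kb (149340001 to 149350000 and 150550001 to 150560000) with a peak score of 7.59, a regional score of 2.21 and a peak pixel of 9.24. This pixel was 2.68 times its block mean, at percentile 99.8 of 10 kb pixels. Zfp951 on chromosome 5 lay in loops of 510 kb (104570001 to 104580000 and 105080001 to 105090000) and 580 kb (104750001 to 104760000 and 105330001 to 105340000), with peak scores of 4.67 and 7.29, regional scores of 1.90 and 2.54 and peak pixels of 5.09 and 7.01. The anchor of the first at lower coordinates held an end of Zfp33b. Another loop, of 500 kb, had an anchor inside the Zfp951 record, with a peak score of 4.32.

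Zfp956 on chromosome 6 lay in the shortest enclosing loop, of 130 kb (47850001 to 47860000 and 47980001 to 47990000), with a peak score of 6.00, a regional score of 2.13 and a peak pixel of 9.33. Zfp957 on chromosome 14 lay in loops of 175 kb (79130001 to 79135000 and 79305001 to 79310000) and 660 kb (78660001 to 78670000 and 79320001 to 79330000), with peak scores of 6.82 and 3.23, regional scores of 2.80 and 1.96 and peak pixels of 5.51 and 5.59. Of all members, Zfp956 and Zfp957 were also the 2 whose promoters held, on either strand, the CTCF core searched for, which is CCA, AG and GGC with 2 bases of any kind between neighbours. That is 2 of 63 promoters (3.17%), against 2.39% of all promoters, a share near the background. The letters are in capitals with 20 bases on each side, on the opposite strand in Zfp956 (chr6:47953362-47953413, plus strand printed) and on the coding strand in Zfp957 (chr14:79247421-79247472, minus strand).
Zfp956: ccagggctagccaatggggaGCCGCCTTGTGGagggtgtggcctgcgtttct
Zfp957: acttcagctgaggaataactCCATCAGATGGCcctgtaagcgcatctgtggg
Neither promoter lay in an anchor. The TATA box letters TATAAA were found in none of the 63 member promoters. If these were independent, a count of 0 would allow a share of up to 4.76%, but the 63 belong to 55 genes, 28 of them with repeated promoters, so the limit is higher. The letters were found in 25 of 300 promoters of other Zfp genes (8.33%) and in 12.7% of all promoters.

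Zfp959 on chromosome 17 lay in a loop of 240 kb (55700001 to 55710000 and 55940001 to 55950000), with a peak score of 3.42, a regional score of 2.02 and a peak pixel of 5.06, and stood 1.08 kb from an anchor of another loop. Zfp964 on chromosome 8, 7.87 kb from an anchor, lay in a loop of 350 kb (69325001 to 69350000 and 69675001 to 69700000), with a peak score of 3.67, a regional score of 2.24 and a peak pixel of 16.3. Zfp950 on chromosome 19 had the most loops around it. Loops of 340, 420 and 1275 kb enclosed it, with peak scores of 4.49, 4.93 and 4.22. The first ran from an anchor with an end of Grk5, a kinase of G protein-coupled receptors, to one with an end of Csf2ra, and the second from one with ends of Dennd10 and Sfxn4. The 340 kb loop (60880001 to 60890000 and 61220001 to 61230000) had a regional score of 2.31 and a peak pixel of 7.02. The 420 kb loop (60830001 to 60840000 and 61250001 to 61260000) had a regional score of 2.68 and a peak pixel of 6.23. The 1275 kb loop had the lowest peak pixel of the 636 loops of 25 kb pixels, 5.34. A pair of further loops, of 350 and 210 kb, had anchors inside the Zfp950 record, with peak scores of 3.48 and 3.91.

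**Figure D5:**
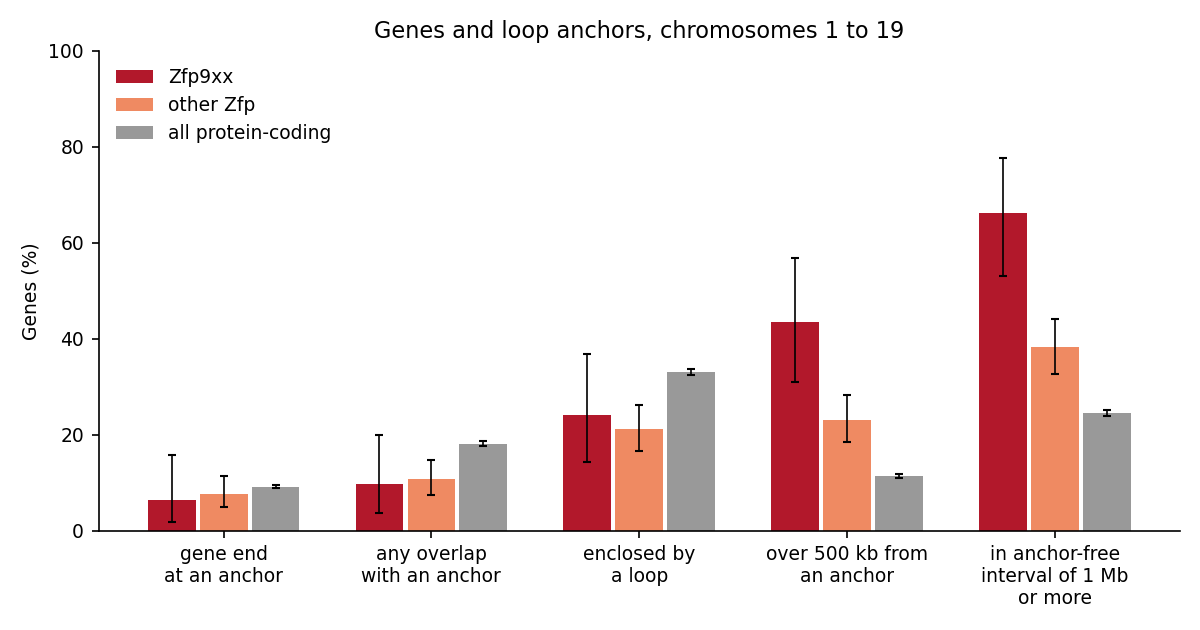
Share of genes (y axis, percent, bars with exact Clopper-Pearson 95% intervals) for 5 placements relative to loop anchors, for Zfp9xx genes, other Zfp genes and all protein-coding genes of chromosomes 1 to 19. The first 3 Zfp9xx bars (6.45, 9.68 and 24.2%) have intervals that reach those of all genes, while the last 2 (43.5 and 66.1%) stand above them. The intervals count clustered genes as if they were separate, although the 41 genes of the last bar shared 12 anchor-free intervals, so they are no test. The last measure was added after seeing the data.

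Of 30 genes listed as partners of KRAB zinc finger proteins or heterochromatin factors, 29 were on chromosomes 1 to 19. Zfp57 and Zfp809 in this list are zinc finger genes themselves and also count among the other Zfp genes. An end at an anchor was found for 2 of the 29 (6.90%), near the 9.19% of all genes. Kdm1a, a histone demethylase, had a loop of 160 kb with a peak score of 3.1, and Atf7ip, a cofactor of Setdb1, one of 360 kb with a peak score of 5.7. Loops enclosed 12 of the 29 (41.4%), against 33.0% of all genes, and the median distance to an anchor was 54.4 kb, against 57.4 kb. Trim28, the shared corepressor, is named after its value was seen. It lay 3899 kb from the nearest anchor, in the same anchor-free interval of chromosome 7 as Zfp954. That interval of 9990 kb held 138 protein-coding genes in all.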

How the data were processed

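Micro-C of 2 samples of the siControl group was represented by 1 deposited loop list. Juicer 1.5.6 and mm10 are named in the submitters' processing notes. How loops were called, at which thresholds, and whether samples were pooled is not given in the sources used here. Neither the deposited score of column 8 (peak) and of column 10 (regional), nor the deposited fraction of column 9, which was not used, nor the deposited signal of column 15 has a header, so what they mean was worked out from the values. Subtracting 8/9 of column 11 from column 15 gave column 13 to within rounding, so column 15 was taken as the peak pixel and column 13 as its 3 by 3 mean. The normalization of the map is unknown, so pixels were ranked only within a pixel size.

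Anchors were made 1-based. An enclosed gene lay between the inner edges of both anchors. Distances ran from gene record to anchor edge. Promoters were aligned globally (match 1, mismatch -1, gap opening -2, gap extension -0.5). Python 3.11.15, pandas 2.3.3, scipy 1.17.1 and biopython 1.88 were used. Counting was tested on simulated loops. Members, lists and alternatives were chosen with earlier results of these data known. The measure of repeated promoters was added after seeing the data. Every member is named. Full values are given for members at an anchor and, for enclosing loops, the highest-scoring and the shortest per locus. Intervals cover counting error only. Protein sequences were not used here, so the planned finger counts were not made.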

Additional observations from a re-analysis of the deposited data

How the results depend on the processing

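No paired analysis was possible because both samples share 1 group and 1 loop list, and no replicate could be left out of it. Long anchor-free intervals, counting by locus and leaving out clusters were added after seeing the data. Of 42 alternative values, 30 were labelled the same and 12 moved. Shares and medians counted as the same inside the counting interval of the value reported. For the few loops at gene ends that interval was their whole range, so a move could hardly be seen. Cluster numbers were judged by a fixed ratio, and the regional score was set as moved because its scale differs. No difference was tested. The values that moved follow, and most of those labelled the same are not listed here. The share of genes with an end at an anchor (6.45%) was 1.61% with 5 kb pixels alone and 1.61% with 10 kb pixels alone, against 1.95 and 5.68% of all genes, since fewer loops enter. The share enclosed (24.2%) was 9.68% with loops of at most 1 Mb, 8.06% with loops of at most 500 kb (21.5% of all genes), 1.61% with 5 kb pixels (7.77%), 9.68% with 10 kb pixels (21.5%) and 11.3% without loops above a peak score of 10. The median peak score of loops at gene ends (3.87) was 2.23 on the regional score, which has another scale and a median of 2.22 over all loops. The median distance to an anchor (303 kb) was 939 kb with 10 kb pixels alone. The share in anchor-free intervals of 1 Mb or more (66.1%) was 45.2% for intervals of 2 Mb or more (11.7% of all genes), 85.5% with 10 kb pixels alone (45.9%) and 46.4% with each locus counted once. With gaps of 250 and 1000 kb, the 8 clusters became 9 and 6. The unknown read depth and the caller's settings limit every count.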
